A study of Homo sapiens with 20 samples.

Results

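The genes described here are 38 genes of stratified and cornified epithelial differentiation, taken by symbol from a list that covers the cornified envelope, transglutaminases, keratins of differentiated cells, adhesion proteins of the upper layers, proteases and their inhibitors, barrier lipids, surface proteins and 1 transcription factor. All 38 symbols matched 1 identifier each among the 60671 gene identifiers of the deposited table. RNA was measured in hTCEpi, a human cell line from the corneal epithelium that telomerase keeps dividing, grown in keratinocyte growth medium with added calcium chloride. SPARC, a secreted matricellular protein that binds collagen, was added as recombinant human protein. The control samples received 0 µg/ml and the other groups 0.05, 0.5 or 5 µg/ml (SPARC 0.05, SPARC 0.5 and SPARC 5). Each of the 4 groups has 5 samples, all taken after 24 hours. All samples come from this 1 line. The labels do not say whether the 5 samples of a group came from separate cultures, so the p-values measure the spread between these samples, which may be technical.

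In a stratified epithelium, cells divide in the basal layer and change their keratins, junctions and surface as they move up. In skin the uppermost cells cross-link involucrin, small proline-rich proteins, periplakin and envoplakin under the plasma membrane with transglutaminases, and load lipids onto that cornified envelope. The corneal epithelium is stratified but normally does not cornify. Its differentiated cells are known for keratins 3 and 12 and for membrane mucins. Extracellular calcium is a classical trigger of this programme in cultured keratinocytes.

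The deposited counts summed to between 31955358 and 50112286 per sample, with group means (M counts) of 34.9 for control, 37.2 for SPARC 0.05, 40.9 for SPARC 0.5 and 37.5 for SPARC 5. The cells matched their epithelial label through KRT5, a keratin of basal cells. The summed level of 7 basal and corneal epithelial markers was 11800 to 12300 CPM (counts per 1 M counts, with sample totals scaled by trimmed mean of M values, or TMM, factors) at SPARC 5 and 11400 to 12300 CPM in control. KRT12, the keratin that defines differentiated corneal epithelium, had 11 counts in all 20 samples together. Within that marker list KRT14 and TP63 rose at SPARC 5 and ALDH3A1, a corneal crystallin, fell (log2 fold changes of 0.49, 0.09 and −0.85). Of 6 conjunctival and goblet cell markers 1 was at 0 in either group, and their summed level was 2.4 to 3.33 CPM at SPARC 5 and 2.2 to 3.06 CPM in control. Of 7 stromal markers 3 were at 0 in either group (KERA, keratocan of corneal stroma, had no count in any sample), with summed levels of 5.58 to 7.79 CPM at SPARC 5 and 4.63 to 6.23 CPM in control. Immune markers summed to 1.35 to 2.03 CPM at SPARC 5 and 1.91 to 3.05 CPM in control, endothelial markers to 0.239 to 0.719 CPM at SPARC 5 and 0.705 to 1.28 CPM in control, and melanocyte markers to 2.32 to 3.49 CPM at SPARC 5 and 2.54 to 3.62 CPM in control. PECAM1, of the endothelial list, fell in the slope over dose steps (adjusted p = 0.0434, edgeR). The part of these marker levels in the results below was not tested. For genes averaging at least 1 CPM, each sample's deviation from the mean log2 CPM of all samples was correlated with gene GC content. This correlation lay between −0.127 and 0.099 at SPARC 5 and between −0.012 and 0.27 in control.

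Most of the 38 differentiation genes were at low levels in these cells. Of the 38 genes, 35 had at least 1 count and 20 had enough counts to test. Another 15 had counts but too few to test, and SPRR2D, TGM3 and KLK5 had none in any sample. In 1 sample, 3 counts correspond to between 0.0599 and 0.0941 CPM. A count of 0 still allows this level, for counting error only and if each count is a separate fragment. If both mates of a pair were counted, a count of 0 allows a higher level. On the scale of CPM per kilobase of exon, the control levels were highest for EVPL (30.3), PPL (21.5), CSTA (14.5) and KRT10 (6.76). These were the only 4 of the 38 genes above the median of 1.98 CPM per kilobase of the 22492 tested genes with a known length. KRT80 (1.82 ± 0.481, SD, n = 5) and CERS3 (1.80 ± 0.154) came next and did not differ beyond their spread. SPRR1A is annotated with an exon of 270 bases, so its level per kilobase rests on a short gene model.

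**Figure D1:**
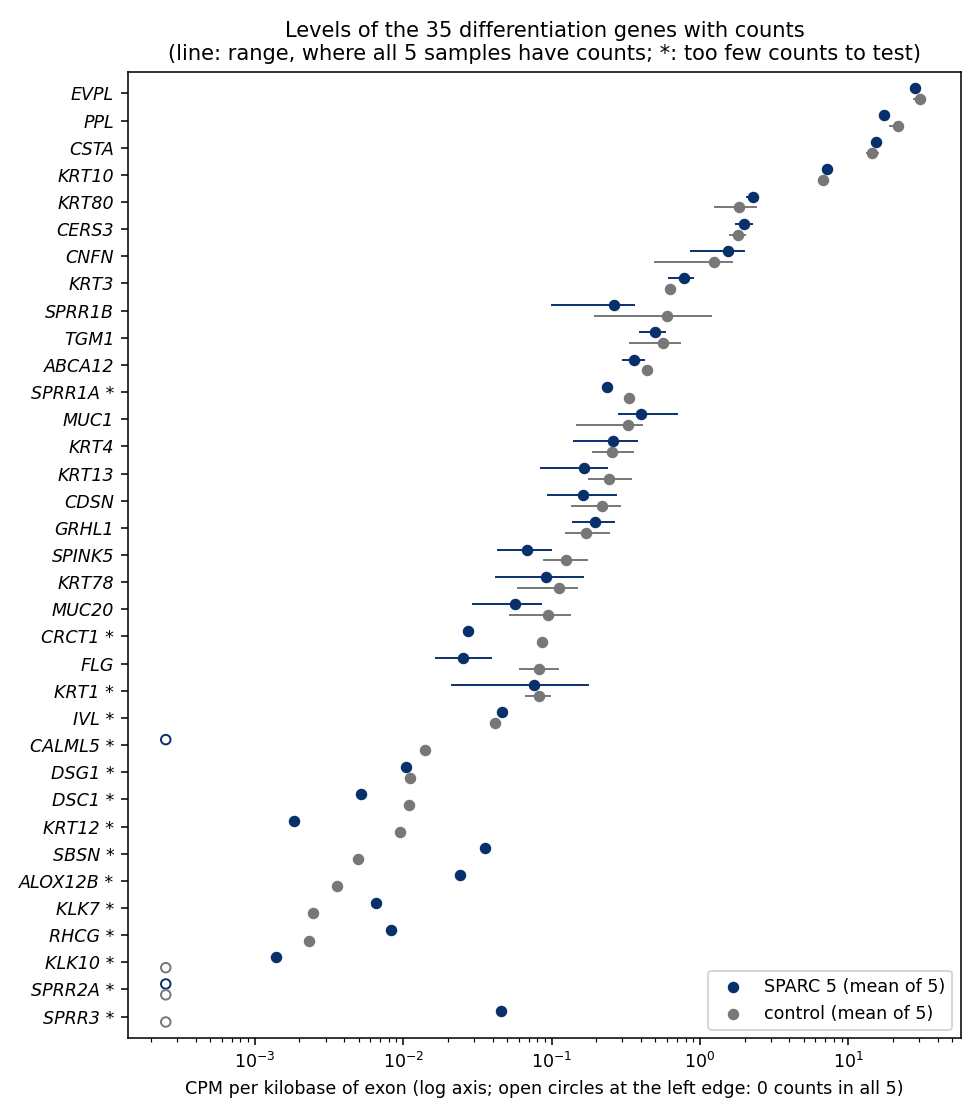
Mean level of each of the 35 genes with counts, as CPM per kilobase of exon on a log axis, at SPARC 5 (dark) and in control (grey), with 5 samples each. Lines show the range where all 5 samples had counts, stars mark genes too sparse to test, and open circles mark groups with 0 counts. EVPL, PPL, CSTA and KRT10 stand above all others.

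Read counts were compared with edgeR's quasi-likelihood test, with Benjamini-Hochberg adjustment over the 22938 genes that had enough counts. A gene "rose" or "fell" here if its adjusted p stayed under 0.05. At SPARC 5 against control, 3 of the 20 tested genes fell (FLG, PPL and EVPL), 1 rose (KRT80) and 16 did not pass. Over all genes tested, 11.6% passed in this comparison, 7.04% higher and 4.58% lower. The median log2 fold change of the 20 genes was −0.15, against −0.01 over all genes tested. The samples of SPARC 5 and control did not overlap for 2 of the 20 genes, FLG and PPL, where 7.68% of all genes tested did not overlap. At SPARC 0.5 against control none of the 20 passed, and 3 had an unadjusted p under 0.05, where 2.25% of all genes passed (1.36% higher and 0.894% lower). At SPARC 0.05 against control none passed, and 1 had an unadjusted p under 0.05, where 0.266% of all genes passed (0.187% higher and 0.0785% lower). The median log2 fold changes of the 20 genes were −0.0040 at SPARC 0.05 and 0.06 at SPARC 0.5, against −0.0025 and −0.0044 over all genes tested. The 3 doses share their control samples.

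The comparison of SPARC 5 with SPARC 0.5 does not set control against SPARC 5, but it shares the SPARC 5 samples with the comparison above. Its count filter, scaling and spread were also drawn from all 20 samples, so it is not separate evidence. FLG and PPL fell in this comparison and the other 18 genes did not pass. Over all genes tested, 4.8% passed (3.31% higher and 1.49% lower). The slope per dose step over all 20 samples gave the same names as SPARC 5 against control: FLG, PPL and EVPL fell and KRT80 rose, where 11.1% of all genes passed (6.81% higher and 4.27% lower). This slope contains the SPARC 5 and control samples and is no separate evidence.

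**Figure D2:**
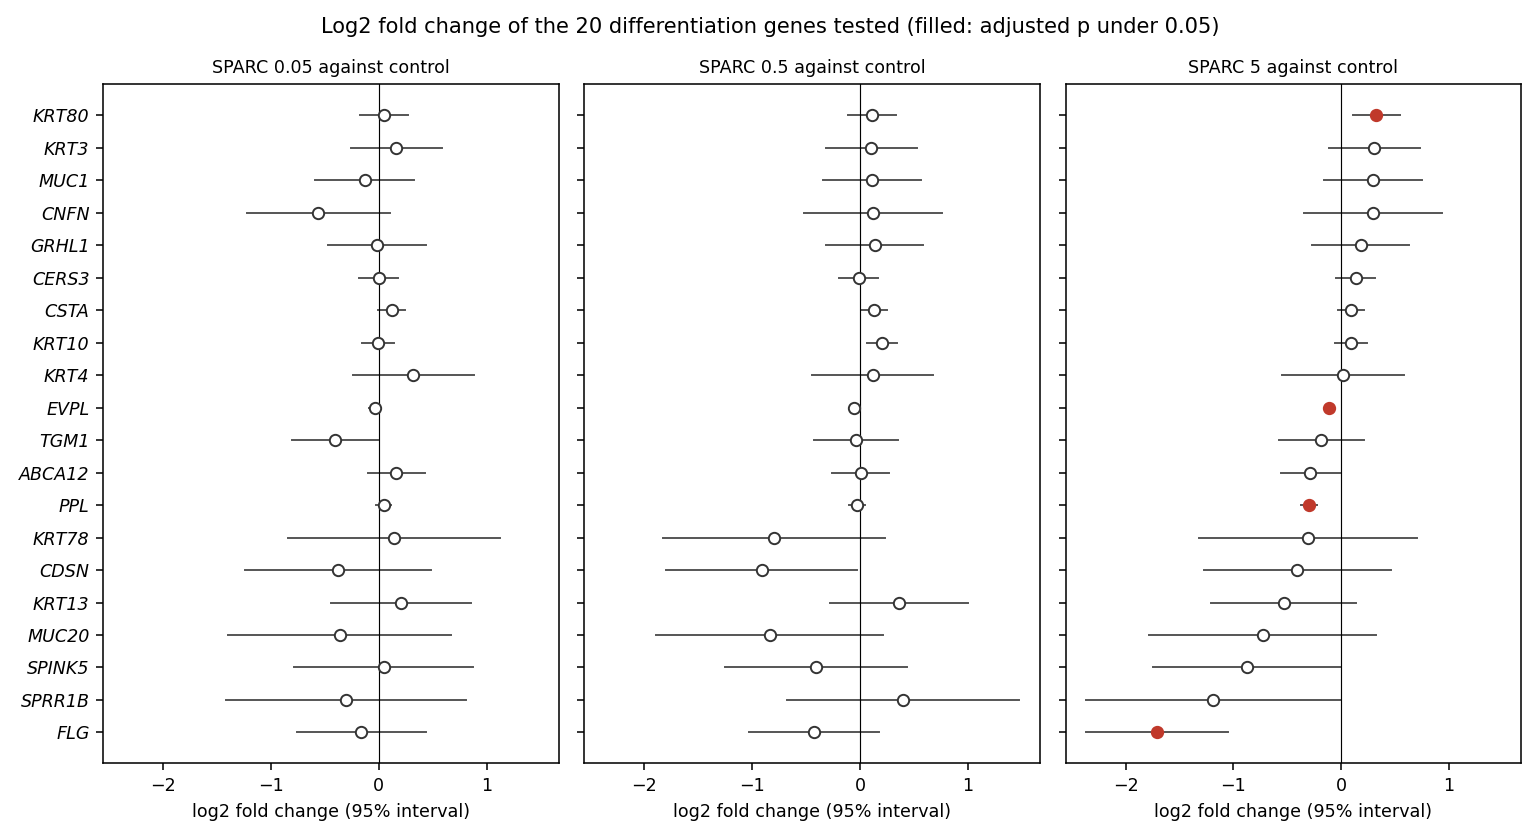
Log2 fold change of the 20 tested genes against control at each dose, with 95% intervals computed as 1.96 standard errors. Filled points have an adjusted p under 0.05. No point is filled at SPARC 0.05 or SPARC 0.5, and FLG, PPL, EVPL and KRT80 are filled at SPARC 5.

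Among the cornified envelope proteins, 3 of the 5 tested genes fell at SPARC 5 and 2 did not pass, where 4.58% of all genes fell. Among other envelope proteins and transglutaminases, listed for context below, 2 of 9 tested rose and 0 fell, where 7.04% of all genes rose. The largest change was in FLG, which encodes filaggrin, the keratin-bundling protein of the granular layer of skin. FLG lies on chromosome 1 of GRCh38, between 152302175 and 152325203 on the minus strand, in the epidermal differentiation complex that also holds IVL and the SPRR genes. Its level was 0.213, 0.499, 0.239, 0.275 and 0.388 CPM at SPARC 5, against 0.836, 1.24, 0.985, 1.41 and 0.785 CPM in control. All 5 SPARC 5 samples lay below all 5 control samples. In RNA of whole cultures, fewer cells with a transcript and less of it per cell cannot be told apart. The log2 fold change was −1.71 ± 0.34 (SE, adjusted p = 7.01e-05 by edgeR's quasi-likelihood test), a level 0.306 times that of control. FLG had between 0.455 and 0.941 CPM at SPARC 0.5 and between 0.727 and 1.12 CPM at SPARC 0.05. Both of these groups overlapped control, and their log2 fold changes of −0.43 ± 0.31 and −0.16 ± 0.30 did not pass (adjusted p = 0.594 and 0.932, edgeR). SPARC 5 was also lower than SPARC 0.5, by a log2 fold change of −1.28 ± 0.34 (adjusted p = 0.0101, edgeR), with 4 of the 5 SPARC 0.5 samples above every SPARC 5 sample.

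FLG rests on few reads, with 8, 16, 10, 10 and 14 counts at SPARC 5 against 30, 41, 40, 48 and 26 counts in control. In each library between 67% and 71.1% of the counts from 1 to 20 among the genes tested were even numbers. This is as when both mates of a pair are counted, so the independent fragments of FLG may be fewer than its counts. With counts halved and rounded up, an alternative chosen after seeing the data, the log2 fold change of FLG was −1.72 (adjusted p = 9.11e-05, edgeR). The antisense gene FLG-AS1 overlaps 5.52% of the exon bases of FLG and had 0 to 6 counts per sample at SPARC 5 and 1 to 11 in control. The strand setting of the counting is not known here, so reads of an overlapping antisense gene cannot be told apart from those of the gene itself.

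The promoters of FLG, SPRR1A and SPRR1B are shown as examples from the epidermal differentiation complex whose windows hold the letters of the AP-1 motif. IVL, SPRR2A and SPRR3 of the same complex hold these letters too and are not shown. The promoters shown are the 250 bases before the RefSeq start of each gene in GRCh38.p14, written 5′ to 3′ on the strand of the gene. FLG is at chr1:152325240-152325489 (minus strand), SPRR1A at chr1:152983831-152984080 (plus strand) and SPRR1B at chr1:153030953-153031202 (plus strand). Capitals mark TGANTCA (AP-1) and TATAAA (the TATA box), searched on both strands.
FLG: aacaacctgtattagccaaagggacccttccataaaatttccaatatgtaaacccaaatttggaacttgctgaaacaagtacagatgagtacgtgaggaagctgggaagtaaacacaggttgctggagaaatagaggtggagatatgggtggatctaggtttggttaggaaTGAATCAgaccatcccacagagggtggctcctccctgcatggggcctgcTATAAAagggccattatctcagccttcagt
SPRR1A: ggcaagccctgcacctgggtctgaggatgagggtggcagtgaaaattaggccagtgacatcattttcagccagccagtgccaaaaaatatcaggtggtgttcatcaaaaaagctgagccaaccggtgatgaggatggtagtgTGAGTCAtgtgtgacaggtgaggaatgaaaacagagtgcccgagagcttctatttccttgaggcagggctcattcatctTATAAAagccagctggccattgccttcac
SPRR1B: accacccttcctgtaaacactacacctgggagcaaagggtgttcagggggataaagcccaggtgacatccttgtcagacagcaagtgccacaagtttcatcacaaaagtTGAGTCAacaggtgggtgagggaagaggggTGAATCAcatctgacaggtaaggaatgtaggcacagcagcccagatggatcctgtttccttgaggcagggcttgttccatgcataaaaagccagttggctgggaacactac
The AP-1 letters begin 79 bases before the start of FLG and 108 bases before that of SPRR1A, and at 141 and 111 bases before that of SPRR1B. The TATA letters begin 30 bases before the start of FLG and 29 bases before that of SPRR1A, and SPRR1B has none in this window.

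Promoters of 26 of the 38 genes were matched by symbol in the RefSeq table. PPL, EVPL and KRT80 were not among them, so the shares below do not cover these called genes. Each of the 26 entered with 1 promoter, while the 34943 are all distinct promoters of that table. TGANTCA was in 7 of these 26 (FLG, IVL, SPRR1A, SPRR1B, SPRR2A, SPRR3 and SBSN), which is 26.9%, against 6.59% of all 34943 promoters of that table. TATAAA was in 10 of the 26 (38.5%), against 10.8% of all. AACNGGTT, the motif of Grainyhead factors such as GRHL1, was in the SPINK5 promoter only, against 1.49% of all promoters. GCCNNNGGC, the motif of TFAP2 factors, was in 4 of the 26 (15.4%), against 19.7% of all. All were searched on both strands. In the 3 windows shown the AP-1 and TATA letters do not overlap, and a match describes the sequence only.

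PPL and EVPL encode periplakin and envoplakin, plakin-family proteins that link keratin filaments to desmosomes and to the early cornified envelope, and they were the most abundant of the 38 genes. PPL (chromosome 16, 4882507 to 4960741, minus strand) had 129, 137, 131, 138 and 137 CPM at SPARC 5, against 158, 178, 172, 172 and 147 CPM in control. Every SPARC 5 sample lay below every control sample. The log2 fold change was −0.30 ± 0.04 (adjusted p = 2.28e-08, edgeR). PPL had 155 to 173 CPM at SPARC 0.5 and 166 to 178 CPM at SPARC 0.05, and neither group passed against control (log2 fold changes of −0.03 ± 0.04 and 0.05 ± 0.04). SPARC 5 was lower than SPARC 0.5 by a log2 fold change of −0.27 ± 0.04 (adjusted p = 4.91e-07, edgeR), without overlap of the samples.

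EVPL (chromosome 17, 76004502 to 76027452, minus strand) had 213, 212, 211, 203 and 214 CPM at SPARC 5, against 207, 231, 240, 234 and 225 CPM in control. Here the groups overlapped through control replicate 1, and the other 4 control samples lay above every SPARC 5 sample. The log2 fold change was small, −0.11 ± 0.03 (adjusted p = 0.00257, edgeR). EVPL had 211 to 227 CPM at SPARC 0.5 and 217 to 224 CPM at SPARC 0.05, with log2 fold changes of −0.05 ± 0.03 and −0.04 ± 0.03 that did not pass. The step between SPARC 5 and SPARC 0.5, −0.06 ± 0.03, did not pass either (adjusted p = 0.308, edgeR), but did with a correction for GC content and length (−0.09, adjusted p = 0.0166). Per step of dose, the slopes were −0.50 ± 0.11 for FLG, −0.10 ± 0.02 for PPL and −0.03 ± 0.01 for EVPL.

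**Figure D3:**
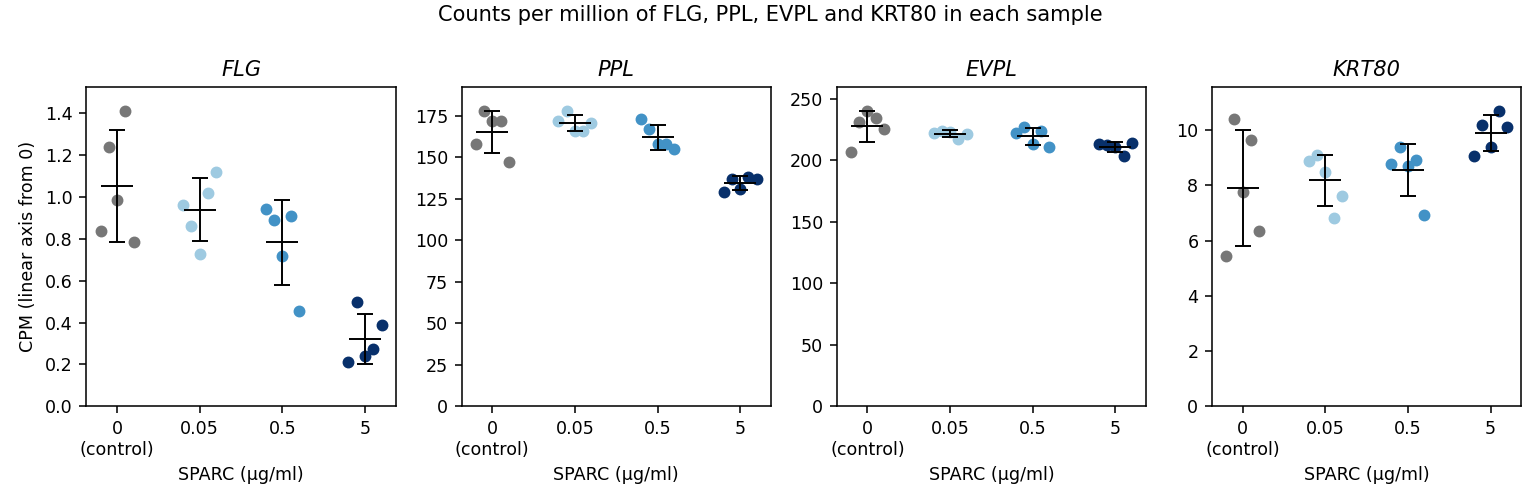
CPM of FLG, PPL, EVPL and KRT80 in each of the 20 samples by SPARC dose, on linear axes from 0, with the mean and SD of 5 samples. FLG and PPL show 5 SPARC 5 samples below all control samples, EVPL differs by a small part of its level, and the control samples of KRT80 spread between 5.46 and 10.4 CPM.

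The other tested envelope genes were SPRR1B, a small proline-rich protein that is cross-linked into the envelope, and CNFN, cornifelin. SPRR1B had 0.0624 to 0.222 CPM at SPARC 5 and 0.121 to 0.735 CPM in control, with 2 to 8 counts per SPARC 5 sample. Its log2 fold change of −1.19 ± 0.60 did not pass (adjusted p = 0.23, edgeR). At SPARC 0.5 SPRR1B ran from 0 to 1.15 CPM, the widest spread of any group for this gene, and SPARC 5 against SPARC 0.5 gave −1.58 ± 0.59 (adjusted p = 0.124, edgeR). Without SPARC 0.5 replicate 4, the sample at 0, that difference was −1.91 (adjusted p = 0.0275), and without SPARC 0.5 replicate 5, the highest sample, it was −1.01 (adjusted p = 0.547). With limma-voom it was −0.61 (adjusted p = 0.839). CNFN had 0.523 to 1.19 CPM at SPARC 5 and 0.302 to 0.985 CPM in control, with a log2 fold change of 0.29 ± 0.33. Its interval, from −0.35 to 0.93, includes changes in either direction.

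TGM1, the keratinocyte transglutaminase that cross-links the envelope, was the only tested gene of its kind in the list, since TGM3 had no counts. TGM1 had 2.16, 1.65, 1.48, 1.79 and 2.14 CPM at SPARC 5, against 2.15, 1.27, 2.29, 2.06 and 2.72 CPM in control. These samples overlapped throughout, and the log2 fold change was −0.19 ± 0.20 (adjusted p = 0.663, edgeR). At SPARC 0.05 TGM1 had 1.29 to 1.84 CPM and a log2 fold change of −0.41 ± 0.20, with an unadjusted p of 0.0467 and an adjusted p of 0.535.

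Of 8 keratins of differentiated cells 6 were tested, and 1 rose at SPARC 5, where 7.04% of all genes rose. KRT80 is a type II keratin that is deposited near desmosomes as cells differentiate. It had 9.08, 10.2, 9.39, 10.7 and 10.1 CPM at SPARC 5, against 5.46, 10.4, 7.75, 9.64 and 6.34 CPM in control. Control replicates 2 and 4 lay within the range of SPARC 5, and the other 3 control samples lay below it. The log2 fold change was 0.32 ± 0.11 (adjusted p = 0.0451, edgeR), close to the threshold. Means were 7.91 ± 2.09 CPM in control, 8.18 ± 0.942 CPM at SPARC 0.05, 8.55 ± 0.947 CPM at SPARC 0.5 and 9.90 ± 0.657 CPM at SPARC 5 (SD, n = 5 each), with a slope of 0.10 ± 0.04 per dose step (adjusted p = 0.0454). The call at SPARC 5 was lost without TMM factors (0.28, adjusted p = 0.0864), with DESeq2 (adjusted p = 0.0522), and with only SPARC 5 and control in the fit (adjusted p = 0.0777). It was also lost in 12 of the 20 fits that left out 1 sample, with the lowest log2 fold change, 0.21, without control replicate 1. Adjusted p was 0.0928, 0.0572, 0.12 and 0.0888 without SPARC 5 replicates 2, 3, 4 and 5, and 0.236, 0.0945 and 0.151 without control replicates 1, 3 and 5. It was between 0.0525 and 0.0547 without SPARC 0.05 replicates 3 and 5 or SPARC 0.5 replicates 1, 3 and 4.

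KRT10, the main type I keratin of suprabasal epidermis, was the most abundant of these keratins. It had 15.4, 15.0, 14.5, 16.0 and 16.3 CPM at SPARC 5, against 14.5, 15.0, 14.7, 14.8 and 13.5 CPM in control. The log2 fold change of 0.09 ± 0.07 did not pass (adjusted p = 0.54, edgeR). At SPARC 0.5 KRT10 had 17.2, 13.8, 17.5, 17.2 and 17.7 CPM, and 4 of these 5 samples lay above every control sample. The SPARC 0.5 difference of 0.20 ± 0.07 did not pass (adjusted p = 0.132, edgeR), but passed with DESeq2 (0.21, adjusted p = 0.0491) and without SPARC 0.5 replicate 2 (0.26, adjusted p = 0.039).

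KRT3, the type II partner of KRT12 in corneal cells, had 1.43 to 2.08 CPM at SPARC 5 and 1.40 to 1.53 CPM in control (log2 fold change 0.31 ± 0.21). KRT4 and KRT13, the keratin pair of non-cornified mucosal epithelia, did not pass, with log2 fold changes of 0.01 ± 0.29 and −0.54 ± 0.34 at SPARC 5. KRT13 averaged 0.705 ± 0.180 CPM in control, 0.812 ± 0.310 CPM at SPARC 0.05, 0.914 ± 0.264 CPM at SPARC 0.5 and 0.482 ± 0.168 CPM at SPARC 5 (SD, n = 5 each). Against SPARC 0.5 the SPARC 5 difference of KRT13 was −0.90 ± 0.34, with an unadjusted p of 0.00875 and an adjusted p of 0.124 (edgeR). KRT78, a type II keratin, had 5 to 17 counts per sample at SPARC 5 and 7 to 17 in control, and a log2 fold change of −0.31 ± 0.51. The genes KRT80, KRT1, KRT3, KRT4 and KRT78 lie within 680 kb of chromosome 12, and of the 4 tested among them KRT80 passed at SPARC 5, while KRT1 had too few counts to test. No test of a difference between these neighbours was made.

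CDSN encodes corneodesmosin, the adhesive protein of modified desmosomes in the upper epidermis. It had 0.240, 0.405, 0.693, 0.303 and 0.444 CPM at SPARC 5, against 0.390, 0.604, 0.739, 0.353 and 0.694 CPM in control. The groups overlapped, and the log2 fold change of −0.41 ± 0.44 did not pass. At SPARC 0.5 the CDSN difference was −0.91 ± 0.45, with an unadjusted p of 0.0456 and an adjusted p of 0.346 (edgeR). On the other strand PSORS1C1 covers 93.8% of the CDSN exon bases, so reads of these genes cannot be told apart where strand was not used.

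CSTA, the cysteine protease inhibitor cystatin A, was the most abundant gene of the protease group. It had 22.0, 21.7, 21.2, 20.6 and 20.5 CPM at SPARC 5, against 18.2, 20.6, 21.6, 20.1 and 18.9 CPM in control. These groups overlapped, with a log2 fold change of 0.09 ± 0.06 (adjusted p = 0.429, edgeR) and an interval from −0.03 to 0.21. At SPARC 0.5 it was 0.13 ± 0.06, with an unadjusted p of 0.0427 and an adjusted p of 0.335. SPINK5, the inhibitor of the kallikreins that cut corneodesmosomes, had 0.191 to 0.437 CPM at SPARC 5 and 0.390 to 0.764 CPM in control. Its log2 fold change of −0.88 ± 0.44 did not pass (adjusted p = 0.226, edgeR). The 3 kallikreins among the 38 genes had few reads, with 0 counts of KLK5, 4 of KLK7 and 21 of KLK10 in all 20 samples together. Of the kallikreins listed for context, KLK14, named after its values were seen, had 337 counts in all, close to the 339 of SPINK5. KLK14 did not pass at SPARC 5 (log2 fold change 0.50 ± 0.46, adjusted p = 0.589, edgeR).

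CERS3, the ceramide synthase for the very long acyl chains of barrier lipids, had 8.95, 10.3, 9.42, 10.5 and 11.5 CPM at SPARC 5, against 9.39, 10.3, 8.91, 9.43 and 8.15 CPM in control. The samples overlapped and the log2 fold change of 0.13 ± 0.09 did not pass. ABCA12, the transporter that loads lipids into lamellar granules, had 2.86 to 3.94 CPM at SPARC 5 and 3.93 to 4.47 CPM in control. Only the highest SPARC 5 sample reached the lowest control sample. The log2 fold change of −0.29 ± 0.14 had an unadjusted p of 0.0412 and an adjusted p of 0.198 (edgeR).

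MUC1, a membrane mucin of the ocular surface, had 3.28, 1.72, 1.60, 1.35 and 1.44 CPM at SPARC 5, against 1.42, 0.695, 1.70, 1.91 and 1.93 CPM in control. SPARC 5 replicate 1 stood above all other samples, and the log2 fold change of 0.29 ± 0.23 was −0.01 without it. MUC20, another membrane mucin, had 4 to 13 counts per sample at SPARC 5 and 8 to 23 in control, with a log2 fold change of −0.73 ± 0.54. Of its transcript windows of 75 bases, 57.5% also occur in other genes, so its counts are uncertain. GRHL1, a Grainyhead-like transcription factor that activates desmosomal genes, had 1.39, 1.43, 2.08, 1.73 and 1.11 CPM at SPARC 5, against 1.70, 0.997, 1.94, 1.06 and 1.12 CPM in control. These samples overlapped throughout and the log2 fold change of 0.18 ± 0.23 did not pass.

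The 15 genes too sparse to test include well known differentiation genes such as IVL and KRT1. IVL, which encodes involucrin, the scaffold of the envelope, had 0 to 6 counts per sample in control, 6 to 12 at SPARC 0.05, 0 to 12 at SPARC 0.5 and 0 to 8 at SPARC 5. KRT1, the epidermal partner of KRT10, was the only one of the 15 with counts in all 20 samples, between 2 and 14. SPRR1A had 0 to 10 counts per sample at SPARC 5 and 0 to 12 in control, but 34 and 18 in SPARC 0.5 replicates 3 and 5. The desmosomal cadherins DSG1 and DSC1 of upper layers had 41 and 55 counts in all samples together. SPRR2A, which shares 23.9% of its transcript windows with other SPRR2 genes, had 2 counts in all. The remaining ones, SPRR3, SBSN, CRCT1, KRT12, KLK7, KLK10, CALML5, ALOX12B and RHCG, had between 4 and 47 counts in all samples together. RHCG, an ammonium transporter, had 14 of its 20 counts in SPARC 0.5 replicate 5.

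Summed over the 15, the level was 0.619 ± 0.304 CPM in control, 0.858 ± 0.181 CPM at SPARC 0.05, 1.17 ± 0.66 CPM at SPARC 0.5 and 0.700 ± 0.237 CPM at SPARC 5 (SD, n = 5 each). Replicates 3 and 5 of SPARC 0.5, with 1.92 and 1.75 CPM, were the highest samples. SPARC 0.5 replicate 2, at 1.15 CPM, also lay above the highest control sample, and replicates 1 and 4 lay within the range of control, 0.279 to 1.11 CPM. Without a filter on low counts, none of the 15 passed in any comparison with edgeR. The smallest unadjusted p values against control were 0.00834 for KLK10 at SPARC 0.5 (adjusted p = 0.255) and 0.0115 for SPRR3 at SPARC 5 (adjusted p = 0.148). SPRR3 had 4, 0, 0, 4 and 4 counts at SPARC 5 and 0 in all 5 control samples.

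**Figure D4:**
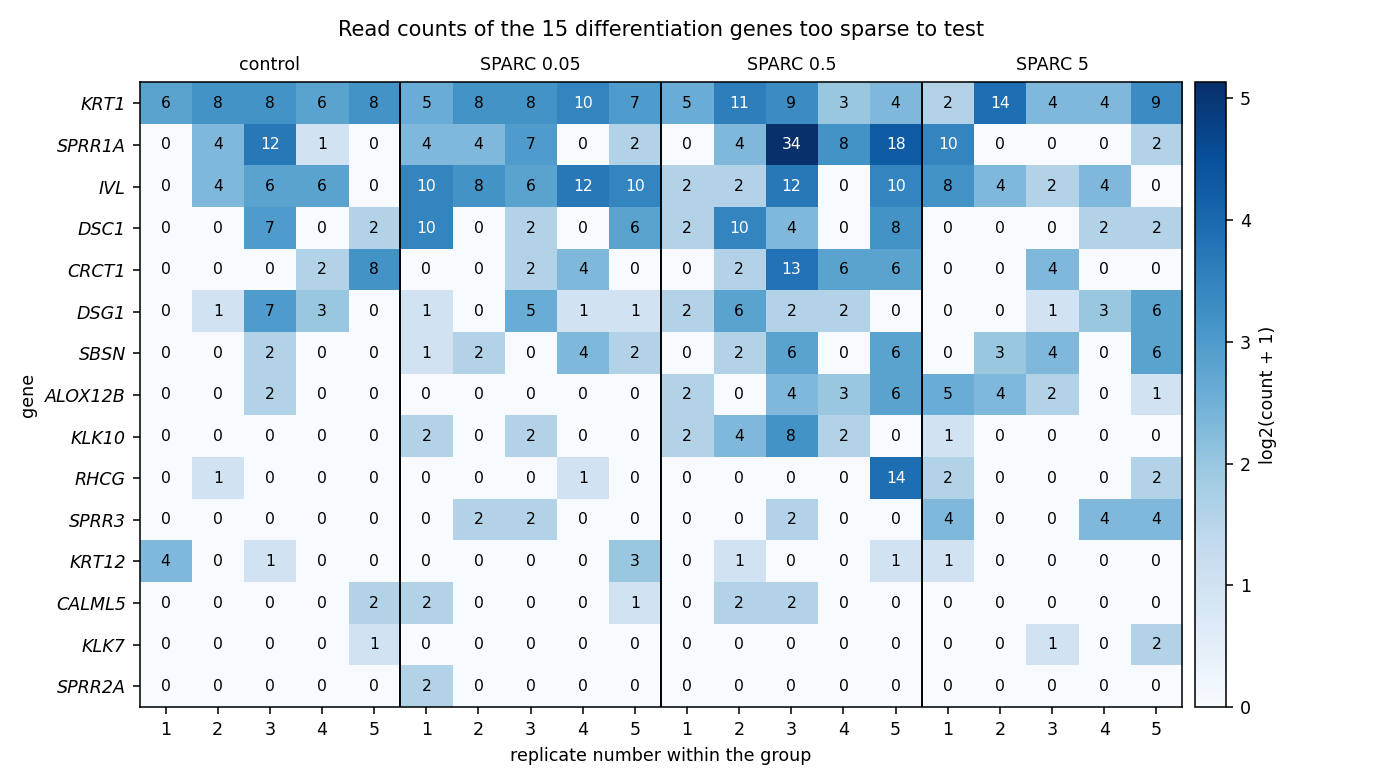
Read counts of the 15 genes with too few counts to test, in each of the 20 samples, shaded by log2(count + 1). Counts are low in every group, KRT1 alone has counts in all samples, and SPARC 0.5 replicate 3 has the highest value, 34 counts of SPRR1A.

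Other genes of the same programme, 123 in number, were listed by role to set the 38 in context, and 64 of them had enough counts to test. At SPARC 5 against control 12 rose, 2 fell and 50 did not pass, where 11.6% of all genes passed, and their median log2 fold change was 0.05. Without TMM factors the split was 9 higher and 6 lower, and over all genes the share of higher calls was 60.6% with TMM factors and 31.3% without, so the balance of directions depends on that scaling. The largest rise among these was that of CST6, which encodes cystatin M/E, an inhibitor of the cathepsins and legumain in the upper epidermis, with 3.97 ± 0.277 CPM at SPARC 5 and 1.40 ± 0.322 CPM in control (log2 fold change 1.50 ± 0.19). TGM2, the widely expressed tissue transglutaminase, rose by 0.98 ± 0.12, with 8.50 ± 0.517 CPM at SPARC 5 and 4.32 ± 0.677 CPM in control. The cathepsins CTSV and CTSC rose by 0.47 ± 0.04 and 0.30 ± 0.03, and ANXA1, an annexin found in the envelope, by 0.20 ± 0.02.

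Other rises were those of DSC2, a desmosomal cadherin (0.17 ± 0.04), UGCG, glucosylceramide synthase (0.16 ± 0.04), and EMP1, an epithelial membrane protein (0.28 ± 0.04). KLF4, a zinc-finger factor required for the skin barrier in mice, rose by 0.25 ± 0.06. SMPD1, the acid sphingomyelinase, SLC27A4, a fatty acid transporter, and TP63, the master factor of stratified epithelia, rose by 0.26 ± 0.08, 0.10 ± 0.03 and 0.09 ± 0.02. Of the 12, SMPD1, SLC27A4 and TP63 lost their calls without TMM factors (adjusted p = 0.0644, 0.297 and 0.266), and DSC2 and TP63 with a correction for GC content and length (adjusted p = 0.213 and 0.174). SLC27A4 and TP63 also lost their calls without a filter on low counts (adjusted p = 0.0839 and 0.0592). SMPD1 also lost its call without SPARC 5 replicate 1 or 3 or control replicate 1 or 3, with adjusted p up to 0.114. SLC27A4 lost its call without SPARC 5 replicate 1 or 4 or control replicate 2 or 4, with adjusted p up to 0.0867. TFAP2A, an AP-2 factor, fell by 0.13 on the log2 scale, and ST14, which encodes the membrane protease matriptase and was named after its values were seen, fell by 0.15.

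At SPARC 0.5 against control, 1 of the 64 rose (ANXA1, by 0.10) and 1 fell (RXRA, by 0.11). Over all genes tested, 1.36% rose and 0.894% fell in this comparison. RXRA, a nuclear receptor, was named after its values were seen. None of the 64 passed at SPARC 0.05, where 0.266% of all genes passed. Of 14 late cornified envelope genes in the list, 8 had no count and none had more than 30 counts in all 20 samples together. LORICRIN, the main protein of the epidermal envelope, had 8 counts in all samples.

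The authors' deposited table of SPARC 5 against control holds 16045 genes, among them 13 of the 38. In the authors' deposited table PPL and EVPL had an adjusted p under 0.05 at SPARC 5 (log2 fold changes of −0.32 and −0.12, adjusted p = 1.12e-09 and 0.00149). KRT80 had a log2 fold change of 0.31 and an adjusted p of 0.0609 in the authors' deposited table. None of the 13 was under 0.05 in the authors' deposited tables of SPARC 0.5 and SPARC 0.05. FLG was not among the 13.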

How the data were processed

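Counts of reads per Ensembl gene were deposited by the authors for 20 samples. The submitters' processing notes list STAR 2.7.9a and featureCounts 2.0.3 of Subread beside Salmon 1.5.2, bcl2fastq, limma and edgeR, with build GRCh38. Which annotation release and strand setting were used is not given in the sources used here. Per the labels' protocols, ribosomal RNA was removed with RNase H and cDNA was primed with random hexamers. The authors' deposited comparison tables give each gene's log2 fold change with its raw and adjusted p-value, per the file headers.

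Of 60871 entries, 168 identifiers stood on 368 entries with equal counts, and 1 of each was kept (0.278% to 0.296% of a sample's counts removed). Genes were filtered with filterByExpr (minimum count 10), scaled with TMM factors and compared in edgeR 4.0.16 (R 4.3.3) in 1 quasi-likelihood model of the 4 groups, with a second model for the slope per dose step. CPM are counts per 1 M of the sample's total, scaled by its TMM factor. Positions, exon lengths and overlaps came from GENCODE 29 on GRCh38. Alternatives were library sizes without TMM, DESeq2 1.42.0, no count filter, limma-voom (limma 3.58.1), a replicate block, a GC and length correction, only the 2 groups compared and each sample left out.

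Values per sample were given for genes called in any dose or in the slope and for the most abundant gene of each role. Of each context list, up to 3 called genes with the smallest p were named. The 38 genes and all lists were chosen with earlier results of these data known. Samples of equal dose differed by more than counting noise, with a chi-square per gene of 4.09 to 9.55 over 40 pairs, so none was treated as a repeat deposit of another library. This does not show that they came from separate cultures. Polymerase chain reaction copies cannot be told from separate molecules, and limits from counts cover counting error only.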

Additional observations from a re-analysis of the deposited data

Results flagged for a closer look

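In 9 of 106 groups of 5 samples examined with Dixon's gap test, 1 sample stood far from the other 4. These were SPARC 5 replicate 1 for SPRR1A (0.266 CPM) and for MUC1 (3.28 CPM), SPARC 5 replicate 4 for EVPL (203 CPM, the lowest of its group) and SPARC 0.5 replicate 2 for KRT10 (13.8 CPM, the lowest). SPARC 0.5 replicate 5 stood apart for KRT3 (2.08 CPM, the highest), KRT80 (6.93 CPM, the lowest) and RHCG (0.336 CPM, the highest). SPARC 0.05 replicate 4 was the lowest for GRHL1 (1.05 CPM), and control replicate 5 the highest for CRCT1 (0.241 CPM). The test marks about 1 group in 20 by chance where values spread normally. A group with counts in only 1 sample, such as RHCG at SPARC 0.5, is always marked. The 9 of 106 can therefore not be set against that rate.

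The effect at SPARC 5 differed from that at SPARC 0.5 for 2 of the 20 tested genes, by a direct test between these doses with edgeR. The difference in log2 fold change was −1.28 for FLG and −0.27 for PPL.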

How the results depend on the processing

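FLG, PPL and EVPL passed with the same sign at SPARC 5 and in the slope under each alternative run. The number of the 38 genes called was 3 to 4 with 1 sample left out at SPARC 5 and in the slope, against 4. At SPARC 0.5 it was 1 with DESeq2, against 0, and 0 to 1 with 1 sample left out. At SPARC 0.05 it stayed at 0. For SPARC 5 against SPARC 0.5 it was 1 with DESeq2, against 2, because DESeq2 gave FLG no adjusted p there, and 2 to 3 with 1 sample left out. The call of KRT80 in the slope was lost without TMM factors (adjusted p = 0.0889) and in 15 of 20 fits with 1 sample left out (adjusted p 0.0518 to 0.173), and kept only without control replicate 2 or 4, SPARC 0.05 replicate 1 or 2 or SPARC 0.5 replicate 5. At SPARC 5 the log2 fold change of KRT4, 0.01, was −0.0337 without TMM factors, −0.0223 with limma-voom, −0.0019 with counts halved and −0.1493 to 0.1657 with 1 sample left out. That of MUC1 was −0.0096 to 0.391 with 1 sample left out. Other values that did not pass also moved by over 1.5 times with 1 sample left out: CNFN 0.09 to 0.44, TGM1 −0.32 to −0.08, KRT78 −0.61 to −0.13, CDSN −0.68 to −0.26, CSTA 0.06 to 0.12, CERS3 0.08 to 0.17 and GRHL1 0.05 to 0.35. Without TMM factors KRT10, CSTA and CERS3 were at 0.04, 0.04 and 0.08. The cause was not tested. Of the log2 fold changes of single genes under an alternative, 746 kept direction and side of the threshold, 31 (all KRT80) lost a call, 4 gained one and 10 changed sign.

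The labels give no meaning to replicate numbers. Over 30 same-numbered pairs the correlation of deviations was −0.0347 to 0.044 (median 0.0153), with 0 over 0.1, against a median of −0.0014 over 120 other pairs. With 5 replicate numbers to match, 11 of 20 samples correlated best with their own, more than an even spread over the numbers would give. This is a hint from the data, not the design, so the samples were not treated as paired. With the replicate block the number of genes called was 4 at SPARC 5, 0 at SPARC 0.5, 0 at SPARC 0.05, 2 between SPARC 5 and SPARC 0.5, and 4 in the slope. Over all genes, 61 passed at SPARC 0.05, against 203 with DESeq2, 10 with the GC and length correction, 34, 39 and 23 without control replicates 2, 3 and 4, and 22, 34 and 33 without SPARC 0.05 replicates 2, 3 and 5. At SPARC 0.5, 517 passed, against 819 with DESeq2, 267 without SPARC 0.5 replicate 4 and 333 without control replicate 3. How far depth, rather than a low level in these cells, left the 15 genes too sparse to test was not tested.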
